A study of Mus musculus with 20 samples.

Results

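Genes used as markers of primordial germ cells, namely Dppa3, Dppa5a, Dnd1, Prdm1, Prdm14, Tfap2c, Nanos3, Ifitm3 and Kit, were followed by bulk RNA sequencing of aggregates that mouse embryonic stem cells form in culture. They were taken by name, as 9 genes of the 54446 gene IDs in the tables, and each had a value in all 15 libraries. Levels are in TPM, the standard unit of transcript abundance, which corrects for gene length and scales every library to the same total. Of the 9 genes, 8 had a mean of at least 1 TPM over the 15 libraries and entered the test with 14290 genes in all. Prdm14, at 0.622 TPM, did not.

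All structures came from the F1G4 line carrying reporters for Brachyury (T::H2B-mCherry) and Sox2 (Sox2::H2B-Venus), so every result describes a single line. Cells freed of feeder cells aggregated for 48 h and then received a pulse of 3 µM CHIR99021, which activates WNT signalling. The group named 96h holds precursors of trunk-like structures (TLS) at 96 h, pooled by 10. The other groups were collected at 120 h and pooled by 6: gastruloids without Matrigel (Gastruloid), structures in Matrigel, a basement membrane gel (TLSMG), in Matrigel with CHIR (TLSMGC), and in Matrigel with CHIR and LDN, a BMP receptor inhibitor (TLSMGCL). Each group had 3 libraries, described as biological replicates, from structures picked for an asymmetric pole. Each comparison asks how germ cell gene RNA differed between time points, culture in Matrigel, added CHIR and added LDN.

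Primordial germ cells are the founders of eggs and sperm. In the mouse embryo, BMP signals from the extraembryonic ectoderm, together with WNT3, induce them in the proximal epiblast, and the transcription factors PRDM1, PRDM14 and TFAP2C set up their programme. They keep or regain genes of pluripotent stem cells, make the RNA-binding proteins NANOS3 and DND1, and migrate to the gonad with help of the receptor KIT. Most of the 9 genes do not belong to germ cells alone: Dppa3, Dppa5a, Ifitm3 and Prdm14 are also active in pluripotent cells, Prdm1 in endoderm and other tissues, Tfap2c in trophoblast and surface ectoderm, and Kit in blood, endothelium and neural crest derivatives. Whether Nanos3 and Dnd1 are confined to germ cells was not tested.

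The label of the genes was set against later germ line genes. Of 18 genes on that list, 3 reached a mean of 1 TPM over the libraries, namely Rhox5, Rhox6 and Tex19.1. The list was drawn up by name, and whether these 3 are confined to the germ line was not tested. Dazl, an RNA-binding protein of committed germ cells, had group means between 0.095 and 0.652 TPM, and Ddx4, an RNA helicase of the germ line, between 0.0117 and 0.674 TPM. Gtsf1 and Asz1 were listed at 0 in all libraries. These RNAs come from whole structures, and in bulk samples fewer cells of a type and less RNA per cell cannot be told apart. The cells are labelled as embryonic stem cells. Pou5f1, a pluripotency gene that germ cells also use, ranged in group mean from 116 ± 26.7 TPM (SD, n = 3) in 96h to 10.1 ± 4.93 TPM in TLSMGC.

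Across the 5 groups the RNA of most of the genes was highest in Gastruloid or TLSMG and lowest in the CHIR groups, while Kit peaked in TLSMG and was at similar levels in 96h and the CHIR groups. Summed over the 9 genes, levels ran from 252 to 356 TPM in Gastruloid, 148 to 176 in TLSMG, 107 to 178 in 96h, 63.8 to 75.4 in TLSMGCL and 49.4 to 70.7 in TLSMGC. Dppa5a alone makes up much of this sum. In the moderated F test of limma over the 5 groups, 8 of 8 tested genes differed, against 73.5% of all genes tested. Nanos3, Dnd1 and Prdm1 averaged under 1 TPM in TLSMGC and TLSMGCL and passed the filter through the other groups, so the count is a description.

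**Figure D1:**
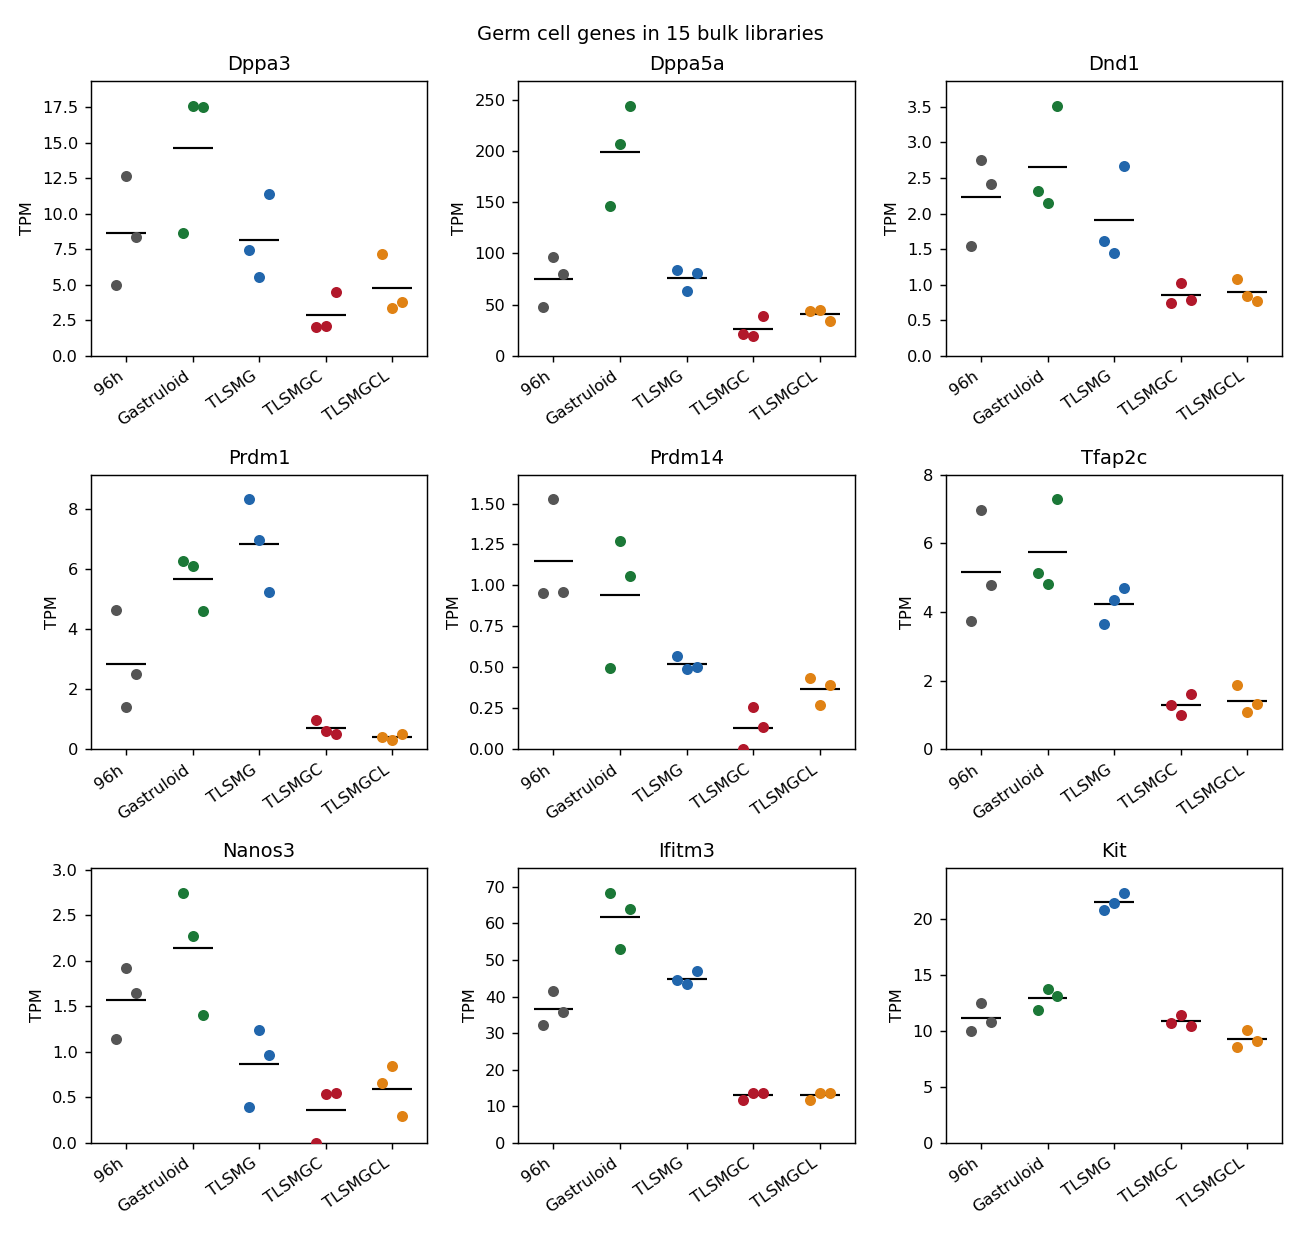
Levels of the 9 germ cell genes in TPM on linear axes starting at 0. Points are the 3 libraries of each of the 5 groups, in replicate order, and bars are group means. The points of TLSMGC and TLSMGCL lie lowest for Tfap2c, Dnd1, Prdm1 and Ifitm3, and those of TLSMG lie highest for Kit, at 20.9 to 22.3 TPM.

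For 4 of the genes a promoter window, 250 bases before to 50 after the start of transcription, was available from RefSeq on GRCm38.p6, with 2 nearly identical windows for Kit. The first window of each is shown because AP-2 factors, the family of the member Tfap2c, bind GCCNNNGGC, and capitals mark matches to it.
Prdm1, chr10:44458699-44458998, minus strand: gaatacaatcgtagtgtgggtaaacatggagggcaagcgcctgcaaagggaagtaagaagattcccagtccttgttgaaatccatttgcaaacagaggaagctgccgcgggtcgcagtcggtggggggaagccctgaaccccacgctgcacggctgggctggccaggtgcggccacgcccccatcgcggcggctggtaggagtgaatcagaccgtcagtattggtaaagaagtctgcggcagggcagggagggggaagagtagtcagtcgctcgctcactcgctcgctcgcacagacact
Nanos3, chr8:84176503-84176802, minus strand: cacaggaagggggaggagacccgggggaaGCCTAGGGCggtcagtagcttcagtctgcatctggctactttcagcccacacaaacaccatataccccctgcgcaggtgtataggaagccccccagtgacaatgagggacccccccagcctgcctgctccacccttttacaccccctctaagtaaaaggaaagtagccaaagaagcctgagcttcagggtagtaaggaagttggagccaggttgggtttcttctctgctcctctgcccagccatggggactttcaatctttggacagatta
Ifitm3, chr7:141010695-141010994, minus strand: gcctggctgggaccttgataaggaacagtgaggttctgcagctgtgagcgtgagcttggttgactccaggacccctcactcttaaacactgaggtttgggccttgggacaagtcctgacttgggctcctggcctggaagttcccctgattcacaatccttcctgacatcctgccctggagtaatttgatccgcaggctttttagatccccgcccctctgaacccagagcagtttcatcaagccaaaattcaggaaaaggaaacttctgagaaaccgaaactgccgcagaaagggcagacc
Kit, chr5:75574737-75575036, plus strand: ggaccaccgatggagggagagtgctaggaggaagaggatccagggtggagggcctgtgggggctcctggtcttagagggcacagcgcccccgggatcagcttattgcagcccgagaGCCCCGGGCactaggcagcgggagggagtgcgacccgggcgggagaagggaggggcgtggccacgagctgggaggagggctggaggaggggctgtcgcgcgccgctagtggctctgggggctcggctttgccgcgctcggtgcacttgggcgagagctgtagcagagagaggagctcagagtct
Nanos3 held GCCTAGGGC from position -221 and Kit held GCCCCGGGC from position -134, counted from the start of transcription as 0. Of all 32851 windows, 16.6% held the motif on either strand. No window of the 4 genes matched the octamer ATGCAAAT, the T-box motif AGGTGTGA or the TCF/LEF motif CTTTGAT, which 1.74%, 1.28% and 3.73% of all windows held. CpG pairs numbered 20 in the Prdm1 window, 3 in Nanos3, 5 in Ifitm3 and 20 in Kit, against a median of 7.0. A match is a description of these letters, and the absence of a match says nothing about binding.

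Prdm1 (ENSMUSG00000038151.13, chromosome 10, 44437177 to 44528501, minus strand) encodes the zinc finger repressor BLIMP1, which shuts down the somatic programme in germ cell precursors. Its levels were 4.63, 1.41 and 2.52 TPM in 96h, 6.27, 6.11 and 4.59 in Gastruloid, 8.32, 6.98 and 5.24 in TLSMG, 0.971, 0.612 and 0.506 in TLSMGC and 0.412, 0.326 and 0.516 in TLSMGCL. All 6 libraries with CHIR lay below all other libraries, whereas TLSMG and Gastruloid overlapped. Mean read depth over the Prdm1 exons was 0.81 to 1.10 in TLSMGC and 0.55 to 0.72 in TLSMGCL, so its levels there are imprecise. Here and below the levels stand in the order of replicates 1 to 3, and coordinates are those of GRCm38.

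The mean of Prdm1 was 9.83-fold lower in TLSMGC than in TLSMG, a log2 difference of -2.20 (SE 0.25, adjusted p = 1.39e-05). This and the other differences are on the scale of log2(TPM + 1), which understates changes of genes with low TPM, and come from limma with Benjamini-Hochberg adjustment over all 14290 genes. Against 96h, Prdm1 rose by 0.87 in Gastruloid (SE 0.25, adjusted p = 0.0129) and by 1.09 in TLSMG (SE 0.25, adjusted p = 0.00266). It was the member with the highest level in replicate 1 and the lowest in replicate 2 within 96h, the reverse of the other 8 members. Without 96h replicate 2 the rise in Gastruloid was 0.57 with an adjusted p of 0.0614, and with those 2 groups alone in the fit the adjusted p was 0.0540, within 0.00073 to 0.0614 over all alternatives.

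Gut endoderm markers, from tissue that also expresses Prdm1, summed over 8 genes to between 115 and 160 TPM in 96h, 103 and 131 in Gastruloid, 89.1 and 134 in TLSMG, 42.1 and 80.6 in TLSMGC, and 47.1 and 65.4 in TLSMGCL. All 8 averaged at least 1 TPM in every group. The sum was lowest in the groups with CHIR, where Prdm1 was lowest, but its highest library was in 96h, where Prdm1 averaged 2.85 ± 1.64 TPM against 6.85 ± 1.55 in TLSMG. Krt18, Cldn6, Krt8 and Cdh1, which many epithelia share, made up most of it. Foxa1, a factor of endoderm, averaged 1.14 ± 0.286 TPM in 96h, 4.16 ± 0.588 in Gastruloid, 5.64 ± 1.10 in TLSMG, 1.10 ± 0.555 in TLSMGC and 1.07 ± 0.274 in TLSMGCL, the same order of group means as Prdm1, although 96h lay at the level of the CHIR groups. Foxa2, another endoderm factor on the list, did not share that order. It averaged 5.31 ± 2.66 TPM in 96h, 4.59 ± 0.332 in Gastruloid, 4.14 ± 1.51 in TLSMG, 2.73 ± 1.43 in TLSMGC and 2.53 ± 0.258 in TLSMGCL. Sox17, an endoderm factor that germ cells of some mammals also need, had its highest mean in TLSMGC, at 7.43 ± 5.87 TPM, against 5.31 ± 2.43 in TLSMG. The part of these markers in the result was not tested.

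Prdm14 (ENSMUSG00000042414.7, chromosome 1, 13113457 to 13127163, minus strand) encodes a transcription factor that holds down DNA methylation and differentiation in germ cells and naive stem cells. Its levels were 0.957, 1.52 and 0.961 TPM in 96h, 0.494, 1.27 and 1.06 in Gastruloid, 0.573, 0.493 and 0.503 in TLSMG, 0, 0.259 and 0.136 in TLSMGC and 0.435, 0.268 and 0.394 in TLSMGCL. Mean read depth over its exons ran from 0 to 3.19 in the libraries, so these are among the least precise values here, and the listed 0 may be a failed estimate.

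With the filter lowered to a mean of 0.1 TPM, which tested 19869 genes, Prdm14 was lower than in 96h in TLSMG (log2 difference -0.49, SE 0.15, adjusted p = 0.0203), in TLSMGC (-0.92, SE 0.15, adjusted p = 0.00035) and in TLSMGCL (-0.64, SE 0.15, adjusted p = 0.00479). In the same comparisons 11.4%, 17.5% and 19% of all genes were lower by that rule. TLSMGC was also lower than TLSMG (-0.43, SE 0.15, adjusted p = 0.0402, with 24.7% of all genes lower). Prdm14 did not share the rise of Prdm1: its difference of Gastruloid from 96h was -0.16, with a 95% confidence interval from -0.48 to 0.17.

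Tfap2c (ENSMUSG00000028640.11, chromosome 2, 172549593 to 172558622, plus strand) encodes AP-2γ, the third of the inducing factors. Its levels were 3.73, 6.98 and 4.78 TPM in 96h, 5.13, 4.83 and 7.27 in Gastruloid, 3.66, 4.36 and 4.70 in TLSMG, 1.30, 0.994 and 1.61 in TLSMGC and 1.87, 1.08 and 1.31 in TLSMGCL. The 96h libraries overlapped both Gastruloid and TLSMG, all TLSMG libraries lay below all Gastruloid libraries, and every library with CHIR lay below every library of those groups. The mean was 3.26-fold lower in TLSMGC than in TLSMG, with a log2 difference of -1.19 (SE 0.20, adjusted p = 0.00036), and TLSMGC and TLSMGCL fell by 1.40 and 1.33 on the log2 scale against 96h (SE 0.20 each, adjusted p = 8.53e-05 and 0.00014).

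Of the other 4 AP-2 genes none passed the filter. Tfap2a, the next most abundant, averaged 0.344 ± 0.378 TPM in TLSMG and less elsewhere, and Tfap2d was listed at 0 in all groups. Among trophoblast markers Cdx2, which tailbud tissue also expresses, carried 70.9 to 109 TPM by group mean, whereas Tpbpa was at 0 in all groups and Elf5 reached at most 2.06 TPM, in a 96h library. Gata3 averaged 1.11 ± 0.969 TPM in 96h, 3.26 ± 0.169 in Gastruloid, 3.60 ± 0.602 in TLSMG, 1.16 ± 0.656 in TLSMGC and 0.110 ± 0.0524 in TLSMGCL. It was lower in TLSMGC than in TLSMG by -1.13 (SE 0.27, adjusted p = 0.00459), the same direction as Tfap2c, and Plac1, under the filter, averaged 1.23 TPM in Gastruloid and 0.0191 TPM in TLSMGCL. Hand1 and Ascl2 did not share that direction. Hand1 differed by 0.15 between TLSMGC and TLSMG (SE 0.51, adjusted p = 0.836). Ascl2, under the filter, averaged 0.195 TPM in Gastruloid, 0.242 in TLSMG, 0.609 in TLSMGC and 0.484 in TLSMGCL. The sum over the 7 trophoblast markers, mostly Cdx2, was between 90.6 and 139 TPM in 96h, 54.7 and 87.1 in Gastruloid, 68.2 and 83.8 in TLSMG, 86.7 and 109 in TLSMGC, and 85.5 and 101 in TLSMGCL. The part of these markers in the Tfap2c result was not tested. Surface ectoderm markers summed over 8 genes to between 69.6 and 87.4 TPM in 96h, 71.1 and 92.4 in Gastruloid, 60.9 and 83.3 in TLSMG, 29.0 and 41.5 in TLSMGC, and 34.6 and 42.3 in TLSMGCL. That sum moved in the same direction as Tfap2c. Most of it was Krt18, Krt8 and Epcam, which the gut endoderm list above also holds, so the 2 sums are not independent. Krt18, Krt8 and Grhl3 were lower in TLSMGC than in TLSMG, and Epcam did not pass. Krt14 was at 0 in all groups and Trp63 at or below 0.183 TPM in every library. The part of the surface ectoderm sum in the Tfap2c result was not tested.

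Nanos3 (ENSMUSG00000056155.6, chromosome 8, 84173731 to 84185217, minus strand) encodes an RNA-binding protein needed for germ cell survival. Its levels were 1.14, 1.93 and 1.65 TPM in 96h, 2.75, 2.27 and 1.41 in Gastruloid, 0.390, 1.24 and 0.965 in TLSMG, 0, 0.532 and 0.546 in TLSMGC and 0.656, 0.842 and 0.294 in TLSMGCL. Neighbouring groups in this order of means overlapped throughout, while no TLSMGC library reached the lowest of 96h. The genes of Mir181c and Mir181d lie within its bounds on the same strand.

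Nanos3 fell against 96h by 0.94 in TLSMGC (SE 0.24, adjusted p = 0.00605) and by 0.69 in TLSMGCL (SE 0.24, adjusted p = 0.0318), and was lower in TLSMG than in Gastruloid by -0.76 (SE 0.24, adjusted p = 0.0218). The fall in TLSMGCL did not pass without 96h replicate 2 or 3, without TLSMGCL replicate 1 or 3, with no filter or with a pseudocount of 0.1 (adjusted p 0.0254 to 0.123 over all alternatives). The difference of TLSMG from Gastruloid did not pass without Gastruloid replicate 1 or 2, without TLSMG replicate 1 or with a pseudocount of 0.1 (0.00985 to 0.128 over all alternatives).

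Dnd1 (ENSMUSG00000044595.10, chromosome 18) encodes an RNA-binding partner of NANOS proteins that shields germ cell transcripts. Its levels were 1.54, 2.75 and 2.41 TPM in 96h, 2.32, 2.15 and 3.51 in Gastruloid, 1.62, 1.44 and 2.67 in TLSMG, 0.747, 1.02 and 0.788 in TLSMGC and 1.09, 0.837 and 0.776 in TLSMGCL. All libraries with CHIR lay below all others. The log2 difference from 96h was -0.79 in TLSMGC (SE 0.19, adjusted p = 0.00452) and -0.75 in TLSMGCL (SE 0.19, adjusted p = 0.00626).

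The opposite strand carries Wdr55, at 52.4 to 77.1 TPM, which shares 140 of the 2412 exon bases of Dnd1 in GENCODE M21. The libraries are stranded per the labels, but whether counting used strand is not given in the sources used here, so Dnd1 levels of this size are uncertain. The processed pseudogene Dnd1-ps was listed at 0 throughout.

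Dppa3 (ENSMUSG00000046323.8, chromosome 6, 122626410 to 122630272, plus strand) encodes STELLA, which protects DNA methylation in the early embryo and marks germ cell precursors. Its levels were 5.00, 12.7 and 8.35 TPM in 96h, 8.69, 17.6 and 17.6 in Gastruloid, 7.48, 5.55 and 11.4 in TLSMG, 2.03, 2.08 and 4.47 in TLSMGC and 7.15, 3.34 and 3.80 in TLSMGCL. Every group overlapped its neighbour in the order of means, and the replicates of 96h differed among themselves 2.53-fold. Of the 7 comparisons, Dppa3 passed in those of TLSMGC with 96h (log2 difference -1.30, SE 0.37, adjusted p = 0.0124) and with TLSMG (-1.25, SE 0.37, adjusted p = 0.0157).

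Both calls of Dppa3 were lost when single libraries were left out. Without 96h replicate 2 the difference from 96h was -1.01 (adjusted p = 0.0614, range over alternatives 0.00607 to 0.0614). The difference from TLSMG did not pass without TLSMG replicate 3, TLSMGC replicate 1 or TLSMGC replicate 2 (0.00986 to 0.0718 over alternatives).

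Dppa5a (ENSMUSG00000060461.5, chromosome 9, 78367052 to 78368177, minus strand) encodes a small KH-domain protein of pluripotent cells and early germ cells, and it was the most abundant of the 9 genes. Its levels were 48.1, 96.6 and 79.7 TPM in 96h, 146.6, 207 and 244 in Gastruloid, 84.1, 63.5 and 81.0 in TLSMG, 21.8, 19.4 and 38.6 in TLSMGC and 43.4, 45.0 and 33.9 in TLSMGCL. Gastruloid lay above all other groups, 96h and TLSMG overlapped, and the libraries with CHIR lay below them. The mean was 2.66-fold higher in Gastruloid than in 96h, with a log2 difference of 1.43 (SE 0.28, adjusted p = 0.00107).

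TLSMG did not show the higher level of Dppa5a: it differed from Gastruloid by -1.35 (SE 0.28, adjusted p = 0.00217) and from 96h by 0.07, with a 95% confidence interval from -0.52 to 0.67. TLSMGC was lower than TLSMG by -1.54 (SE 0.28, adjusted p = 0.00068) and lower than 96h by -1.46 (SE 0.28, adjusted p = 0.00088). TLSMGCL was lower than 96h by -0.81 (SE 0.28, adjusted p = 0.0317), a call that did not pass without 96h replicate 2 or 3, without TLSMGCL replicate 1 or 3, or with no filter (0.00696 to 0.135 over alternatives). The ratio of Dppa5a to Dppa3 within a library, both in TPM, ran from 6.07 in TLSMGCL replicate 1 to 16.9 in Gastruloid replicate 1.

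Dppa5a resembles 7 other annotated genes at 95% identity or more over at least 100 bases, mostly pseudogenes listed at or below 1.32 TPM. The exception is Pigp, which shares 417 aligned bases at 95.9% identity and reached 41.0 TPM, so reads could be split between these genes. Dppa3 resembles 2 pseudogenes, the higher of which reached 0.804 TPM. How reads with several matches were handled is not given in the sources used here.

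Ifitm3 (ENSMUSG00000025492.6, chromosome 7, 141009586 to 141010770, minus strand) encodes fragilis, an interferon-induced membrane protein that appears when epiblast cells become able to form germ cells. Its levels were 32.4, 41.6 and 35.8 TPM in 96h, 68.3, 52.9 and 63.9 in Gastruloid, 44.4, 43.3 and 46.9 in TLSMG, 11.8, 13.5 and 13.6 in TLSMGC and 11.8, 13.5 and 13.7 in TLSMGCL. The groups without CHIR did not overlap each other, and the 6 libraries with CHIR fell within a narrow band below them. The mean was 3.46-fold lower in TLSMGC than in TLSMG (log2 difference -1.72, SE 0.11, adjusted p = 8.14e-08), and it was 2.82-fold lower in TLSMGC than in 96h (log2 difference -1.42, SE 0.11, adjusted p = 2.67e-07).

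Ifitm3 rose from 96h to Gastruloid by 0.74 (SE 0.11, adjusted p = 0.00011) and was lower in TLSMG than in Gastruloid by -0.44 (SE 0.11, adjusted p = 0.00588). Its difference of 0.29 between TLSMG and 96h passed (SE 0.11, adjusted p = 0.0393) but was 0.12 (adjusted p = 0.402) when libraries were scaled by median-of-ratios. It also did not pass with FPKM, with no filter, or without 96h replicate 1 or 3 or any of the 3 TLSMG libraries (0.0149 to 0.402 over alternatives).

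The other interferon-induced transmembrane genes of the cluster did not share this order. Ifitm1 averaged 1077 ± 10.5 TPM in 96h, 321 ± 31.4 in Gastruloid, 211 ± 13.6 in TLSMG, 208 ± 18.3 in TLSMGC and 204 ± 22.4 in TLSMGCL. Ifitm2, the most abundant on average, had 747 ± 23.5 TPM in 96h, 572 ± 16.3 in Gastruloid, 545 ± 9.99 in TLSMG, 493 ± 27.0 in TLSMGC and 511 ± 8.96 in TLSMGCL. From 96h to Gastruloid Ifitm1 fell by 1.75 (SE 0.09, adjusted p = 4.21e-09) while Ifitm3 rose, and the remaining 4 family members were under the filter. Both Ifitm1 and Ifitm2 are known from mesoderm and epiblast as well as from germ cells.

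**Figure D2:**
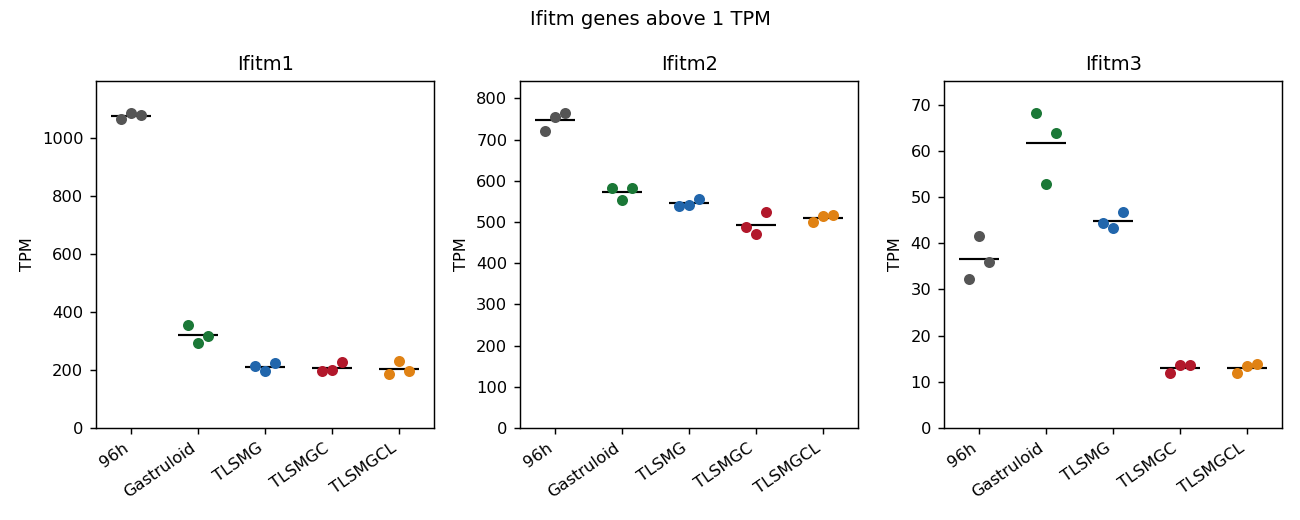
Levels of Ifitm1, Ifitm2 and Ifitm3 in TPM on linear axes starting at 0, with 3 libraries per group as points and group means as bars. Ifitm1 and Ifitm2 are highest in 96h, whereas Ifitm3 is highest in Gastruloid, at 52.9 to 68.3 TPM, and lowest in TLSMGC and TLSMGCL.

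Kit (ENSMUSG00000005672.12, chromosome 5, 75574916 to 75656722, plus strand) encodes the receptor tyrosine kinase for KIT ligand. Its levels were 10.0, 12.5 and 10.8 TPM in 96h, 11.9, 13.8 and 13.1 in Gastruloid, 20.9, 21.4 and 22.3 in TLSMG, 10.7, 11.4 and 10.5 in TLSMGC and 8.58, 10.1 and 9.13 in TLSMGCL. TLSMG lay above every other library, and no other member had its highest mean there except Prdm1. Kit rose from 96h to TLSMG 1.94-fold in the mean (log2 difference 0.90, SE 0.09, adjusted p = 3.37e-06), was higher in TLSMG than in Gastruloid (0.70, SE 0.09, adjusted p = 0.00018) and was lower in TLSMGC than in TLSMG (-0.93, SE 0.09, adjusted p = 4.18e-06). With median-of-ratios scaling the first of these was 0.74 (adjusted p = 4.31e-05, range over alternatives 2.15e-06 to 0.00032).

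TLSMGC and 96h did not differ detectably in Kit, with a difference of -0.03 and a 95% confidence interval from -0.22 to 0.17. The difference of TLSMGCL from 96h, -0.24 (SE 0.09), had an adjusted p of 0.0540. It passed under 4 of 15 alternatives, among them a pseudocount of 0.1 and leaving out 96h replicate 1 or TLSMGCL replicate 2 (0.0285 to 0.230 over alternatives).

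Markers of endothelium, which also expresses Kit, summed over 9 genes to between 10.1 and 14.8 TPM in 96h, 34.6 and 45.8 in Gastruloid, 267 and 324 in TLSMG, 25.1 and 84.5 in TLSMGC, and 12.8 and 21.2 in TLSMGCL. All 9 rose from 96h to TLSMG, against 33.5% of all genes higher, and all 9 fell from TLSMG to TLSMGC, against 30.5% of all genes lower. Cldn5, a tight junction protein, rose by 5.78 (SE 0.25, adjusted p = 1.04e-09) in the first of these comparisons. The endothelial sum was thus highest in the group where Kit was highest, and its part in the Kit result was not tested.

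Blood markers summed over 8 genes to between 1.97 and 4.17 TPM in 96h, 3.00 and 3.75 in Gastruloid, 11.2 and 12.9 in TLSMG, 3.44 and 8.15 in TLSMGC, and 1.53 and 2.62 in TLSMGCL. Tal1 and Lyl1, at 5.885 ± 0.273 and 5.127 ± 0.510 TPM, made up most of the TLSMG sum. Both were higher in TLSMG than in 96h and Gastruloid and lower in TLSMGC than in TLSMG, the directions of Kit. Runx1 was lower in TLSMG than in 96h (-0.73, SE 0.25, adjusted p = 0.0295). The embryonic globins Hbb-bh1 and Hba-x were at 0 in every group, and Gata1 was at or below 0.149 TPM in every library. Neural crest markers summed over 8 genes to between 44.9 and 62.7 TPM in 96h, 81.4 and 101 in Gastruloid, 150 and 163 in TLSMG, 58.1 and 76.6 in TLSMGC, and 53.3 and 69.6 in TLSMGCL. Most of that sum was Pax3, Ets1 and Sox9, which other tissues share, while Sox10, another marker on the list, was at or below 0.409 TPM in every library. Pax3 averaged 22.0 ± 4.39 TPM in 96h, 41.1 ± 11.7 in TLSMG and 40.9 ± 4.34 in TLSMGC. For Sox9 the means were 18.9 ± 3.35 TPM in 96h, 18.8 ± 1.05 in Gastruloid, 18.3 ± 2.34 in TLSMG and 3.135 ± 0.461 in TLSMGC. Ets1 went from 8.31 ± 1.66 TPM in 96h to 79.6 ± 3.65 in TLSMG and 15.5 ± 2.97 in TLSMGC. Snai2, also on the list, averaged 1.37 ± 0.0845 TPM in 96h, 4.20 ± 1.57 in Gastruloid, 16.8 ± 1.26 in TLSMG, 8.97 ± 2.24 in TLSMGC and 6.02 ± 1.27 in TLSMGCL. The part of either list in the Kit result was not tested.

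**Figure D3:**
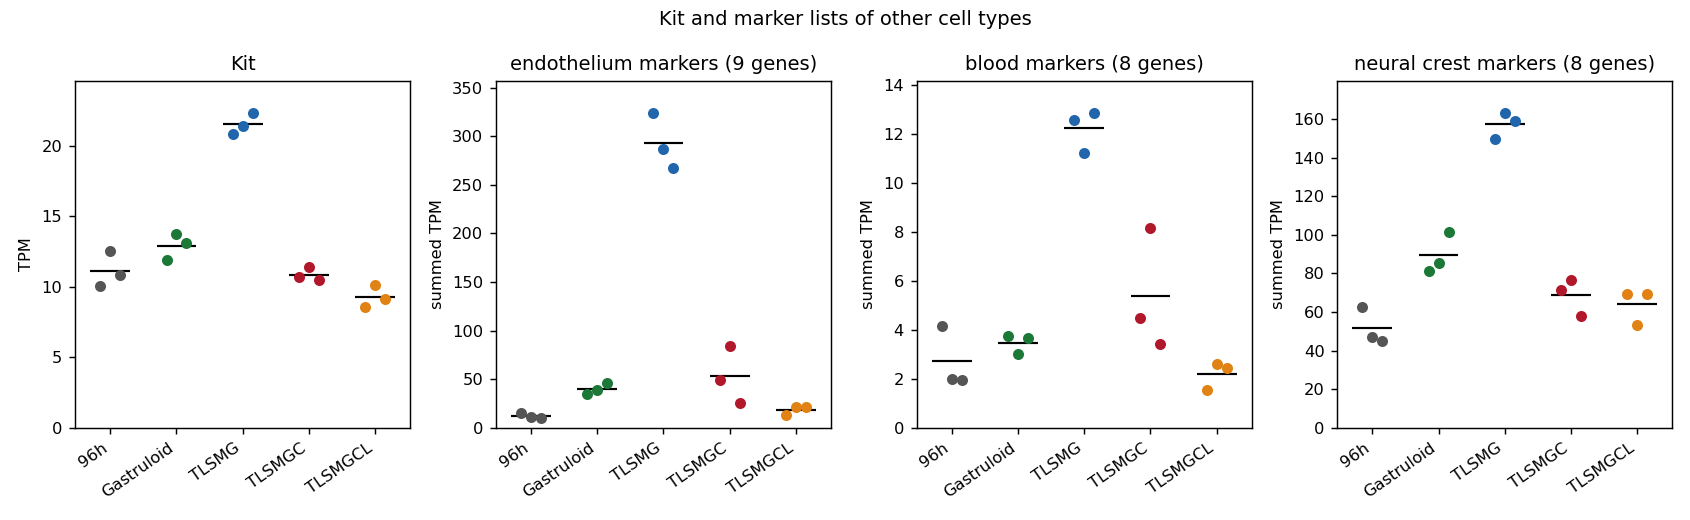
Kit in TPM and the summed TPM of 9 endothelium, 8 blood and 8 neural crest markers, on linear axes starting at 0, with 3 libraries per group as points and group means as bars. Each panel is highest in TLSMG, where Kit was 20.9 to 22.3 TPM and the endothelium sum 267 to 324 TPM.

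Kitl, the ligand of KIT that guides and sustains germ cells, averaged 12.3 ± 1.94 TPM in 96h, 4.69 ± 0.651 in Gastruloid, 14.2 ± 3.19 in TLSMG, 9.66 ± 2.67 in TLSMGC and 5.82 ± 1.01 in TLSMGCL. It was higher in TLSMG than in Gastruloid by 1.41 (SE 0.20, adjusted p = 0.00025), the same direction as its receptor. Kitl is one of 14 inducing and niche signals, of which 11 were tested. Cxcl12, the chemokine that attracts migrating germ cells, rose from 4.03 ± 1.21 TPM in 96h to 114 ± 7.28 in TLSMG and 97.6 ± 18.6 in Gastruloid. Bmpr1a, a BMP receptor, averaged between 46.3 and 70.7 TPM in the groups.

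Taken by comparison, the 120 h Gastruloid libraries carried more RNA of 3 of the 8 tested germ cell genes than 96h and less of none. Dppa5a, Prdm1 and Ifitm3 passed the test, with values given above, against 20.8% of all genes that were higher. The other 5 had positive differences that did not pass, from 0.15 for Tfap2c to 0.71 for Dppa3, whose 95% confidence interval ran from -0.09 to 1.50. The median difference of the 8 was 0.49, beside 0.00 for all genes tested. Kit passed without 96h replicate 2 (0.28, adjusted p = 0.0330) and with FPKM (0.0270, range 0.0270 to 0.299).

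Of 15 pluripotency genes that germ cells also use, Sox2 rose and 7 fell from 96h to Gastruloid, against 20.5% of all genes lower. Those lower were Pou5f1, Sall4, Lin28a, Klf4, Klf5, Tfcp2l1 and Alpl. The other 7 did not pass, and 6 of them had positive differences, the largest of which were 0.72 for Utf1 (SE 0.32, adjusted p = 0.0846) and 0.57 for Zfp42 (SE 0.23, adjusted p = 0.0632). Lin28a, an RNA-binding protein that blocks let-7 and the most abundant of the list, went from 442 ± 45.5 TPM in 96h to 236 ± 19.9 in Gastruloid, and Sall4, a zinc finger factor, from 192 ± 16.1 to 90.5 ± 13.4. Sox2, also a neural gene, had the largest change, 1.91 (SE 0.17, adjusted p = 9.55e-07). Among later germ line genes, Tex19.1 (0.87, SE 0.29, adjusted p = 0.0300) and Rhox6 rose and none of the 3 tested fell.

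Of the inducing signals, 7 of 11 tested fell in the same comparison, again against 20.5% of all genes, namely Bmp4, Bmp2, Wnt3a, Smad1, T, Kitl and Cxcr4, and Cxcl12 rose by 4.30 (SE 0.16, adjusted p = 3.04e-10). Bmp8b, an extraembryonic inducer in the embryo, had group means at or below 0.0333 TPM, and Wnt3 averaged 1.08 ± 0.0722 TPM in 96h and 0.495 ± 0.077 in Gastruloid.

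TLSMG libraries, compared with 96h, held more RNA of Prdm1, Ifitm3 and Kit, 3 of 8 tested, against 33.5% of all genes higher, and less of none of the 8. The members were spread around no change, with a median of 0.01 beside 0.14 for all genes. Under median-of-ratios scaling the median of all genes was -0.01, and 22.4% of all genes were higher and 23.1% lower, against 33.5% and 12.5% in TPM. Relative to the shift of 0.14, Ifitm3 at 0.29 stood little above the bulk of genes, whereas Prdm1 at 1.09 and Kit at 0.90 stood further off. Of the 15 pluripotency genes, 9 fell and Sox2 rose, with the largest change in Pou5f1 (-2.06, SE 0.25, adjusted p = 1.71e-05). None of the 3 later germ line genes passed.

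Gastruloid and TLSMG, both at 120 h, compare culture without and with Matrigel. Kit was higher in TLSMG, 1 of 8 tested against 31.5% of all genes. Dppa5a, Nanos3 and Ifitm3 were lower, 3 of 8 against 7.87% of all genes. Under median-of-ratios scaling, which moved the median of all genes from 0.13 to -0.02, 19.3% of all genes were higher and 18.2% lower, and Ifitm3 differed by -0.61 (adjusted p = 0.00179). The median of the 8 was -0.40. Prdm1 differed by 0.23 with a 95% confidence interval from -0.31 to 0.76.

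In the same comparison 5 of the 15 pluripotency genes were lower in TLSMG, against 7.87% of all genes, namely Pou5f1, Utf1, Zfp42, Esrrb and Tdgf1. Sall4 and Lin28a were higher, against 31.5% of all genes. Utf1, a chromatin factor of stem cells, had the largest difference, -1.13 (SE 0.32, adjusted p = 0.0124). Of the 3 later germ line genes Rhox6 (-1.05, SE 0.25, adjusted p = 0.00567) and Tex19.1 were lower. Of the 11 inducing and niche signals, 6 were higher, against 31.5% of all genes, and Cxcr4 was lower.

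Adding CHIR to Matrigel culture went with lower RNA of 7 of the 8 tested germ cell genes, Dppa3, Dppa5a, Dnd1, Prdm1, Tfap2c, Ifitm3 and Kit, against 30.5% of all genes lower in TLSMGC than in TLSMG. Dnd1 and Prdm1 averaged 0.853 and 0.696 TPM in TLSMGC and passed the filter through groups without added CHIR. The count of 7 is therefore a description. Nanos3 differed by -0.46 (95% confidence interval from -0.96 to 0.05) and did not pass. The median of the 8 was -1.22, beside -0.16 for all genes tested. Under median-of-ratios scaling the median of all genes was -0.01, with 18.3% of all genes higher and 18.8% lower, against 10.4% and 30.5% in TPM, and the same 7 members passed. Dnd1 (-0.63, SE 0.19, adjusted p = 0.0168) did not pass without TLSMG replicate 3 (0.0842, range 0.0100 to 0.0842).

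**Figure D4:**
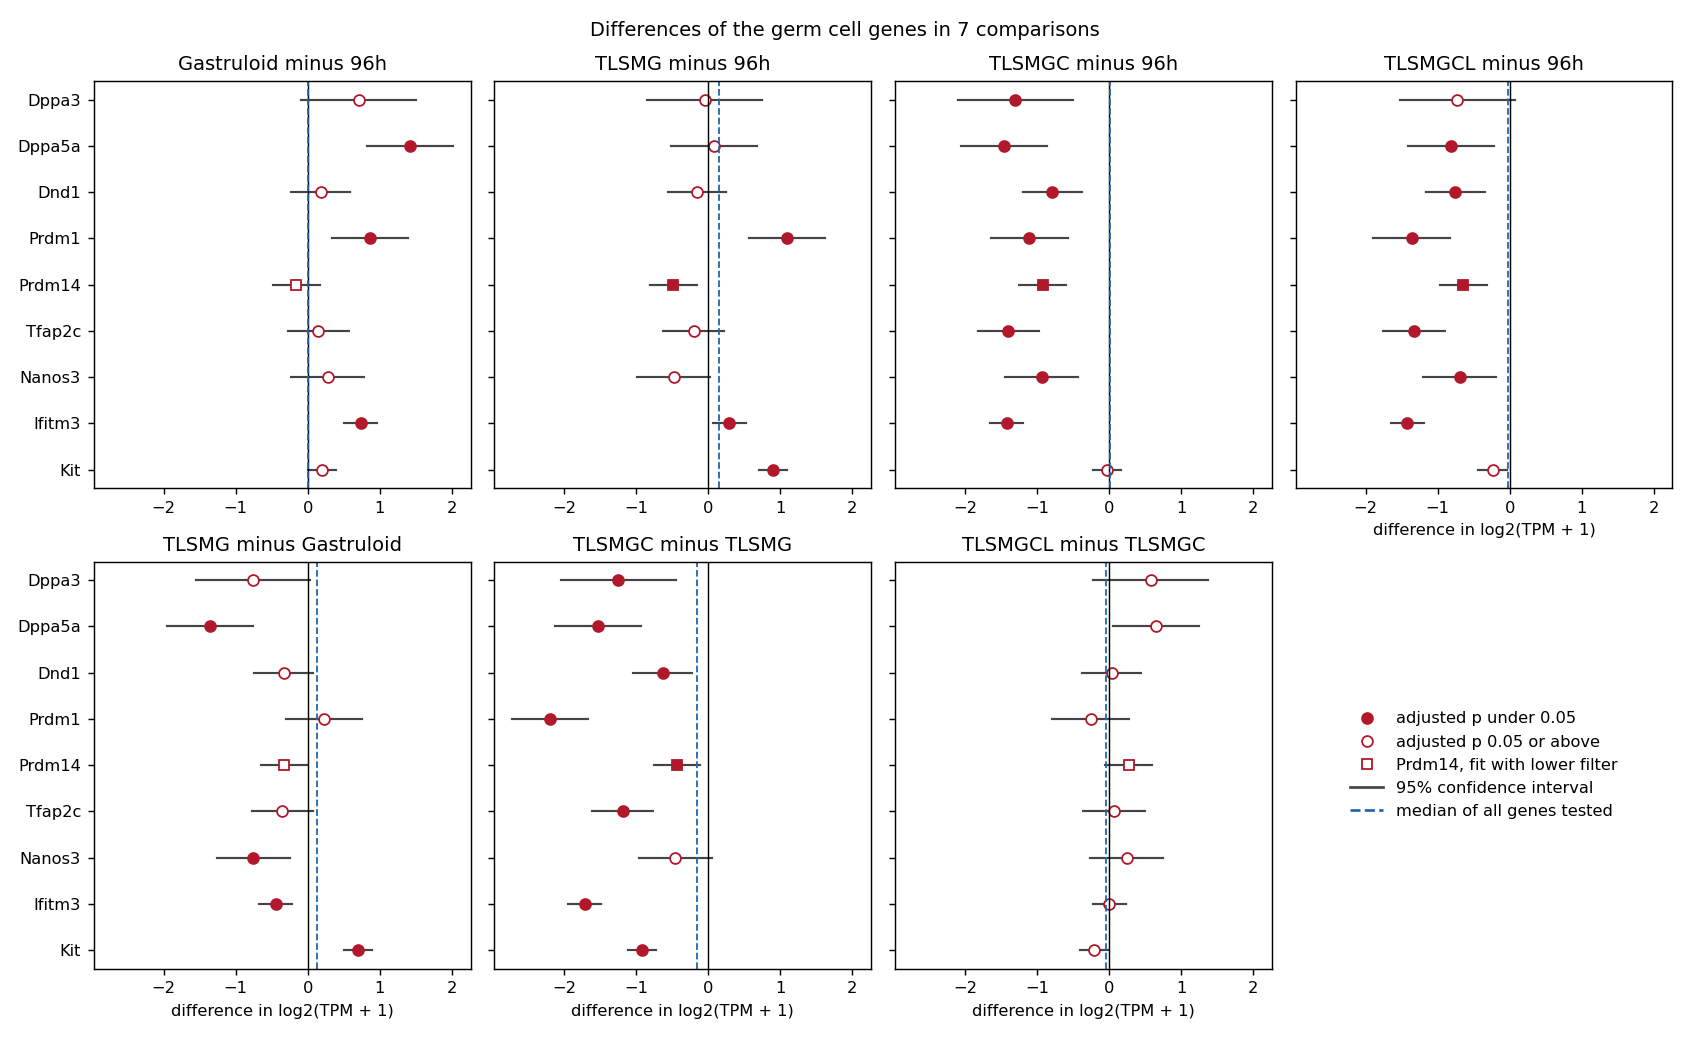
Differences in log2(TPM + 1) of the 9 germ cell genes in 7 comparisons, with 95% confidence intervals. Filled symbols have an adjusted p under 0.05, squares are Prdm14 from the fit with the lower filter, and the dashed line is the median of all genes tested. In TLSMGC minus TLSMG 7 of the 8 tested members are filled and left of 0, and in TLSMGCL minus TLSMGC none is filled. The first count is a description, because Dnd1 and Prdm1 passed the filter through groups without added CHIR.

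Pluripotency genes were also lower in TLSMGC than in TLSMG, 11 of 15 with none higher, against 30.5% of all genes lower. Utf1 had the largest difference (-1.73, SE 0.32, adjusted p = 0.00073). Rhox5 (-1.10, SE 0.22, adjusted p = 0.00133), an X-linked homeobox gene and the most abundant on the list of later germ line genes, and Rhox6 were lower. Of the inducing and niche signals 7 were lower, against 30.5% of all genes, and 3 higher, Wnt3a, T and Cxcr4, against 10.4%. Cxcl12 had the largest difference, -2.77 (SE 0.16, adjusted p = 4.48e-08), while its receptor Cxcr4 was higher at 64.9 ± 6.47 TPM in TLSMGC against 15.9 ± 3.41 in TLSMG.

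Against 96h, TLSMGC carried less RNA of 7 of 8 tested members and TLSMGCL of 6 of 8, against 20.1% and 22.1% of all genes. Dnd1, Prdm1 and Nanos3 averaged under 1 TPM in both CHIR groups and passed the filter through the other groups, so both counts are descriptions. The medians of the 8 were -1.20 and -0.78, beside 0.02 and -0.02 for all genes. Kit passed in neither, and Dppa3 in TLSMGCL did not pass (-0.73, 95% confidence interval from -1.52 to 0.07). The 4 comparisons with 96h share its 3 libraries and so are not independent. In both, 14 of 15 pluripotency genes were lower, with Sox2 the exception, and Pou5f1 changed most, by -3.45 (SE 0.25, adjusted p = 1.59e-07) in TLSMGC and -2.94 (SE 0.25, adjusted p = 7.15e-07) in TLSMGCL. Of the inducing signals Wnt3a changed most, by -2.83 and -3.15 (SE 0.16 each, adjusted p = 1.76e-08 and 5.78e-09).

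Between TLSMGCL and TLSMGC, which differ by LDN, 0 of the 8 tested members passed by limma, against 1.18% of all genes, and 0 passed under each alternative run. The smallest adjusted p was 0.337, and 2 members had an unadjusted p under 0.05. Those were Dppa5a, at 0.65 (95% confidence interval from 0.05 to 1.25), and Kit, at -0.21 (-0.41 to -0.01). The other intervals were widest for Dppa3, from -0.22 to 1.37, and narrowest for Ifitm3, from -0.23 to 0.24. With 3 libraries a group, differences of any size inside these intervals remain compatible with the data. None of the 15 pluripotency genes and none of the 3 later germ line genes passed, and of the 11 signals Cxcl12 was higher (1.04, SE 0.16, adjusted p = 0.00757).

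Over the 15 libraries, the genes most like each member by Pearson correlation of log2(TPM + 1) were listed as a description, since the libraries share groups. Dppa3 was closest to Zfp42 (r = 0.96), the naive stem cell factor REX1, then Tcl1 and Calcoco2. Dppa5a was closest to Hspb1 (0.98), Dppa2 and Gdf3, and Dnd1 to Tfap2c (0.94) and Nqo1. Tfap2c was closest to Nqo1 (0.98), Chmp2a and S1pr3. Tfap2c is thus the member that stood first beside another member.

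Ifitm3 was closest to Mcm5 (0.98), a replication helicase subunit, Gtf3c5 and Meis3. Prdm1 was closest to Nectin2 (0.96), Dapk2 and Hbp1, and Nanos3 to Hist1h2bf (0.94), Stox1 and Rtn2. Kit was closest to Arhgdib (0.98), Jak3 and Tmem255a, and its correlation with the other members ran from 0.15 with Nanos3 to 0.74 with Prdm1. Dppa3 and Dppa5a had r = 0.93 with each other.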

How the data were processed

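Bulk polyadenylated RNA of 15 libraries was sequenced as 75-base paired-end reads, with a stated minimum of 23700000 fragments per sample per the labels' protocols. Per the submitters' processing notes, cutadapt 2.4, STAR 2.7.3a, StringTie 2.0 and the build mm10 were used; the annotation release is not given in the sources used here. The deposited TPM values, per the file headers, are in StringTie gene abundance tables, 1 per library. The deposited FPKM values from the same tables served as an alternative. The deposited coverage signal, mean read depth over exons per the file headers, gave relative depth: coverage divided by FPKM ran from 3.12 to 6.84, and 13688 to 14494 genes reached 1 TPM. Of the 54446 gene IDs, 53229 matched GENCODE M21 with version, start and end. Rows repeating a gene ID, 7 to 13 per table, were summed.

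Genes were tested by the limma package (version 3.58.1, R 4.3.3). Its empirical Bayes step was run with a trend on log2(TPM + 1) for genes with a mean of at least 1 TPM. The 5 groups entered 1 fit, with 7 comparisons, two-sided, Benjamini-Hochberg adjusted over all 14290 genes within each, threshold 0.05, and the scripts were tested on simulated data. All members are named; from other lists, the 2 genes with the highest mean and the largest called change per comparison, and for each tested member its 3 most correlated genes, of which 1 is not reported here; other listed genes were picked after their values were seen. Alternatives were other pseudocounts, filters, FPKM, median-of-ratios scaling, a replicate block, only the compared groups, a minimum log2 difference of 1, and leaving out each library. Members and lists were chosen with earlier results of these data known. The tables hold no read counts, so no counting intervals or floors were computed. The 5 single-cell samples were not analysed here. Python 3.11.15 with numpy 2.4.6, pandas 2.3.3 and matplotlib 3.10.9 was also used.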

Additional observations from a re-analysis of the deposited data

How the results depend on the processing

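Over all alternatives no called difference of a member changed direction. Requiring a log2 difference of at least 1 left 1 member in Gastruloid minus 96h, 1 in TLSMG minus 96h, 3 in TLSMGCL minus 96h and 1 in TLSMG minus Gastruloid. It left 5 in TLSMGC minus 96h and 5 in TLSMGC minus TLSMG. The share of all genes passing that rule was not computed, so these counts are descriptions. A filter at a mean of 5 TPM tests only the 4 most abundant members. It called 3 lower in TLSMGC minus 96h, 2 lower in TLSMGCL minus 96h and 4 lower in TLSMGC minus TLSMG. Of all genes, 19.3%, 21.6% and 31.2% were lower in these comparisons with that filter. It called 4 in the F test, for which no share with that filter was computed. Leaving out each library in turn gave 336 member values, of which 311 kept their call, 22 lost it and 3 gained one. Of 56 values each, 53 kept their call with FPKM, 53 with no filter, 53 with a pseudocount of 0.1, 55 with median-of-ratios scaling, 55 with only the compared groups, and all 56 with a pseudocount of 5. Replicate numbers did not pair the samples (mean correlation of same-numbered deviations -0.07 to 0.04), and with a replicate block 55 of 56 calls were kept, the exception being Kit in TLSMGCL minus 96h, which passed (-0.24, adjusted p = 0.0308). The block called 3 members higher in Gastruloid minus 96h, against 20.1% of all genes. The cause of these changes was not tested. By its highest value over the libraries, read depth was lowest for Prdm14, Nanos3 and Dnd1, whose exons were covered at most 5.11 times on average. In the CHIR groups it was also low for Prdm1, at 0.81 to 1.10 in TLSMGC and 0.55 to 0.72 in TLSMGCL. For Dppa3 and Tfap2c it began at 0.958 and 1.19 in TLSMGC.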

Other observations

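Among the later germ line genes under the filter, 2 had a mean above 1 TPM in a group, and they were picked after their values were seen. Stra8, a retinoic acid target needed for meiotic entry, was at 1.39, 2.97 and 3.49 TPM in 96h, at or below 0.816 TPM in every Gastruloid and TLSMG library, and listed at 0 in all TLSMGC and TLSMGCL libraries. Rhox9, a homeobox gene of the X-linked cluster that also holds Rhox5 and Rhox6, was at 1.87, 2.91 and 5.07 TPM in Gastruloid and between 0.244 and 0.371 TPM in 96h. In TLSMG it ran from 0.289 to 1.96 TPM, overlapping Gastruloid in replicate 3.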
